A study of Rattus norvegicus with 20 samples.

Results

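The comparison of alcohol-preferring (P) rats with the NP.P congenic rats asks how gene expression in the femur depended on the genetic background when both strains carried the P segment of the chromosome 4 quantitative trait locus (QTL). It was made on 10 of the 20 arrays of the series, the 5 labelled as P and the 5 labelled as NP.P, over all 31042 probe sets that are not controls. P is an inbred line selectively bred to drink alcohol, NP is the nonpreferring inbred line bred beside it, and NP.P is a congenic line in which the QTL segment of P was placed on the NP background by repeated backcrossing. The reciprocal congenic P.NP has the P background with the segment of NP, so the 5 P.NP and 5 NP arrays gave the same background contrast with the other segment and no array in common. No group received a treatment, all rats were 4 weeks old, and RNA came from whole bone, named as femur in the methods and as proximal femur in the labels. Each line is 1 inbred or congenic strain, and donor DNA that a congenic line may keep outside its segment was not examined here.

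A congenic strain separates a segment of interest from the rest of the genome: genes in the segment share their alleles between P and NP.P, while genes elsewhere differ wherever the P and NP lines differ. A young femur holds osteoblasts that lay down collagen and mineral, osteoclasts that resorb it, growth plate cartilage, and red marrow, where erythroid, myeloid and lymphoid cells form. Whole bone therefore reports on marrow as much as on matrix. In bulk RNA, fewer cells of a type and less RNA per cell cannot be told apart.

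Signals are MAS5 intensities that the authors set to a common trimmed mean by scaling each array, and differences are given on the log2 scale as P minus NP.P. Of the 31042 probe sets, 18625 passed a filter on the mean signal over all 20 arrays and were tested with limma, and a probe set was called at an adjusted p under 0.1. Median array signals ran from 305 to 316 in P rats and from 292 to 305 in NP.P rats. The 3'/5' signal ratio of the GAPDH control probe sets, a measure of RNA integrity, was 1.13 ± 0.0157 (SD, n = 5) in P rats and 1.09 ± 0.00885 in NP.P rats, with no overlap between the groups (exact permutation test, two-sided, p = 0.00794, the smallest that 5 against 5 can give). The same ratio for beta-actin was 2.13 ± 0.177 in P rats and 2.03 ± 0.147 in NP.P rats (p = 0.381 by the same exact test). The part of RNA integrity in the differences below was not tested. The bone identity held in both strains: 18 of 23 osteoblast and matrix genes were tested, with summed signals from 465569 to 534818 in P rats and from 474603 to 521865 in NP.P rats. Skeletal muscle genes summed to between 637254 and 972883 in P rats and between 717549 and 895828 in NP.P rats, so muscle RNA was present on all 10 arrays. The Y-linked genes Eif2s3y, a translation factor subunit, and Uty, a histone demethylase, were read from 3454 to 5678 (Eif2s3y) and from 1574 to 2017 (Uty) over these 10 arrays, and neither was called (adjusted p = 0.673 for Eif2s3y and 0.693 for Uty).

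In all, 2631 probe sets differed between P and NP.P rats, 14.1% of those tested, with 1281 higher (6.88%) and 1350 lower (7.25%) in P rats. The median size of a called difference was 0.39 on the log2 scale, against 0.15 over all probe sets tested. A difference of 1 or more was called at 162 probe sets (0.87%), 84 higher and 78 lower in P rats. For 36 probe sets the difference was 2 or more, and at all 36 the 5 P arrays lay entirely above or entirely below the 5 NP.P arrays. Groups that did not overlap were found at 9.68% of the probe sets tested. Read at 1 probe set per gene, 1585 of 10665 genes were called (14.9%), 716 higher (6.71%) and 869 lower (8.15%) in P rats, 0.638% of the genes read being called with a difference of 1 or more.

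The gene with the clearest higher signal in P rats was Fam111a, a protease gene in which human mutations cause skeletal dysplasia with short stature. Its signals in P rats were 35324, 27637, 33940.4, 35649.7 and 35533, against 5313, 5387, 4034, 5392 and 4554 in NP.P rats. Every P array was at least 5 times the highest NP.P array, and the log2 difference was 2.77 ± 0.09 (SE; adjusted p = 7.22e-14). Pdgfrl, a secreted relative of the platelet-derived growth factor receptors, followed with 5228, 4614, 5020.1, 5864 and 5184 in P rats, against 2095, 2476, 2167, 1992 and 2162 in NP.P rats. These groups were also fully separate (log2 difference 1.25 ± 0.08, adjusted p = 1.61e-09). Atp10d, a lipid flippase, had 1156, 1089, 1114, 949 and 1151 in P rats, against 332, 253, 425, 319 and 360 in NP.P rats (log2 difference 1.71 ± 0.14, adjusted p = 1.74e-07). All P arrays again lay above all NP.P arrays.

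Other genes higher in P rats by the smallest adjusted p had a range of functions. They were Gfap, an intermediate filament protein best known from astrocytes (log2 difference 1.59), Cd3g, a subunit of the T cell receptor complex (1.55), the sorting nexin Snx14 (1.58), the nuclease gene Rexo4 (1.64), Tmco3 (1.24), the glutathione transferase Gstt3 (1.38), the inositol phosphatase Impa2 (0.99), the membrane scaffold Nherf1 (0.96) and the class I histocompatibility gene RT1-T24-4 (1.15). Their adjusted p values ran from 9.49e-08 for Gfap to 3.57e-07 for RT1-T24-4. For each of them the 5 P arrays lay above the 5 NP.P arrays. Among the called genes with the largest differences, Prcp, a carboxypeptidase of the kinin and angiotensin systems, had 835, 629, 891, 740 and 905 in P rats, against 59.5, 232, 42.1, 49.2 and 211 in NP.P rats (log2 difference 3.13 ± 0.49, adjusted p = 0.000346). The NP.P signals of Prcp were low and scattered, while the P signals were close together. Rab15, a GTPase of endosome recycling (2.44), RT1-A (1.74), Plekhb1 (1.73) and Acox2, a peroxisomal oxidase of branched fatty acids and bile acid precursors (1.70), were the next in size. The NP.P signals of Rab15 (10.6 to 149) and Acox2 (40 to 165) all lay below the filter's signal of 169.7. Those of RT1-A ran from 42.2 to 174. The size of these differences is uncertain, and the Rab15 call was lost by the methods' t-test (adjusted p = 0.172).

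Lcn2 had the smallest adjusted p of all genes. It encodes lipocalin 2, a secreted protein of neutrophil granules that binds the iron carriers of bacteria, and in mice osteoblasts secrete it too. The signals in P rats were 1009, 808, 963, 922 and 809, against 11708, 10155, 11494, 8989.9 and 11630.4 in NP.P rats. The P arrays sat more than 8 times below the lowest NP.P array, and the log2 difference was -3.58 ± 0.09 (adjusted p = 3.58e-15). Of 10 granulocyte genes tested, Fcnb, a ficolin (log2 difference 0.65), and S100a8, a subunit of calprotectin (0.30), were called higher in P rats, Lcn2 was called lower, the other 7 were not called, and the list's median was 0.14. Over all genes, 6.71% were called higher and 8.15% lower. Summed granulocyte signals ran from 161389.9 to 188181 in P rats and from 145129 to 177307 in NP.P rats.

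Setd1b, a histone methyltransferase of active promoters, had 405, 348, 307, 238 and 337 in P rats, against 2186, 1774, 2044, 2109 and 1626 in NP.P rats (log2 difference -2.59 ± 0.13, adjusted p = 6.33e-11). Sgcb, the beta subunit of the sarcoglycan complex of the muscle membrane, had 253, 288, 189, 171 and 344 in P rats, against 2303, 2337, 2177, 2721 and 1786 in NP.P rats (log2 difference -3.22 ± 0.27, adjusted p = 1.48e-07). At the probe set read, both genes were low on all P arrays and high on all NP.P arrays. Probe sequences were not examined, so a sequence difference between the strains under a probe was not told apart from one in expression. The same limit holds for the other genes named here. Dck, the kinase that salvages deoxycytidine for DNA synthesis, had 1546, 1395, 1342, 1137 and 1534 in P rats, against 2935, 3346, 2994, 3115 and 3134 in NP.P rats (log2 difference -1.17 ± 0.08, adjusted p = 2.55e-08). The other genes lower by the smallest adjusted p were Uqcc6, an assembly factor of respiratory complex III (-1.39), the splicing protein Snrpf (-0.92), the neurotrophic factor Nrtn (-1.68), the sorting nexin Snx27 (-0.95), the semaphorin Sema3g (-1.12), the mitosis gene Cdca3 (-0.71) and Clic2, a chloride intracellular channel protein (-1.67). Their P and NP.P arrays did not overlap. Vof16 (-3.04), the splicing factor Cwc25 (-2.53) and Msmp (-2.02) were among the 8 lower genes with the largest differences. The P signals of Vof16 (16.3 to 131) and Cwc25 (28.5 to 163) all lay below the filter's signal of 169.7, so the size of their differences is uncertain.

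**Figure D1:**
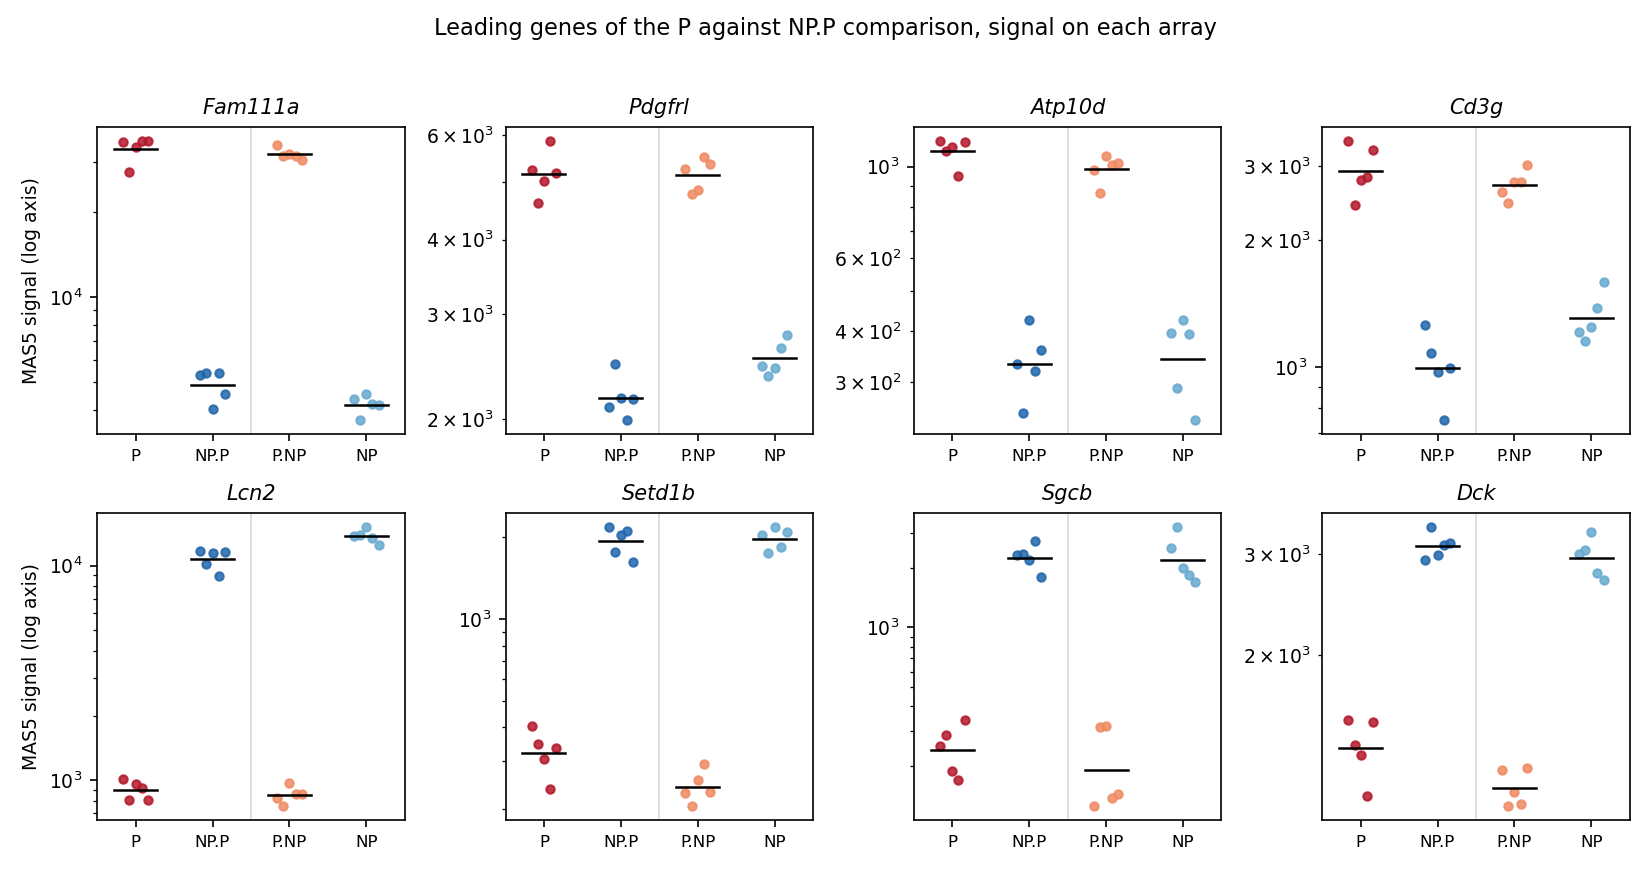
MAS5 signal on a log axis (vertical) on each of the 5 arrays of the P, NP.P, P.NP and NP strains (horizontal) for 4 genes higher (top row) and 4 genes lower (bottom row) in P than in NP.P rats. Points are arrays and bars are means of the log signals; in each panel the P arrays lie apart from the NP.P arrays, and the P.NP and NP arrays show the same order.

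Some of the largest differences belonged to probe sets that carry no gene symbol here. The one with the largest difference of them all had 1290.2, 1160.3, 1483, 1175 and 1565 in P rats, against 12, 85.4, 61.3, 54.2 and 51.2 in NP.P rats (log2 difference 4.90, adjusted p = 9.27e-08). Of the called probe sets, 2009 carried 1 symbol, 59 several and 563 none. Among the 36 with a difference of 2 or more, 18 did not carry a single symbol. Detection calls were not used here, so the low signals of such probe sets cannot be separated from background, and the size of their differences is uncertain.

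The P and NP.P difference was set beside the background difference in rats that all carry the NP segment, P.NP minus NP, which rests on other arrays. In that pair 1784 probe sets were called (9.58%), 780 higher (4.19%) and 1004 lower (5.39%) in P.NP rats. Read at 1 probe set per gene, 9.39% of genes were called, 4.3% higher and 5.08% lower. Of the 2631 probe sets called in P minus NP.P, 2251 (85.6%) had the same sign in P.NP minus NP, compared with 65.1% of all probe sets tested, and 840 were called there with the same sign. These 840 were 31.9% of the calls of the first pair and 47.1% of the calls of the second. With opposite signs, 17 probe sets were called in both. Fewer calls were shared when each pair was fitted alone, as given in the last section. The larger the difference, the more often it was called again. The filter's mean signal took in the P.NP and NP arrays, so these arrays had a part in which probe sets were tested. A larger difference is also easier to call. The part of the filter and of the size itself in this rise was not tested. Of the 162 probe sets with a difference of 1 or more, 105 were called again with the same sign, as were 34 of the 36 with 2 or more and all 14 with 3 or more. Fam111a was 32003 ± 1499 (SD, n = 5) in P.NP rats and 4185 ± 321 in NP rats, and Lcn2 was 856 ± 79.6 in P.NP rats and 13720.3 ± 978 in NP rats. For neither gene did the contrasts pass a test of their difference (adjusted p = 0.758 and 0.257 for the difference between the contrasts). Principal component 1, with 20.9% of the variance between arrays, separated the P and P.NP arrays, from 10.7 to 25.3, from the NP.P and NP arrays, from -24.9 to -9.6.

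**Figure D2:**
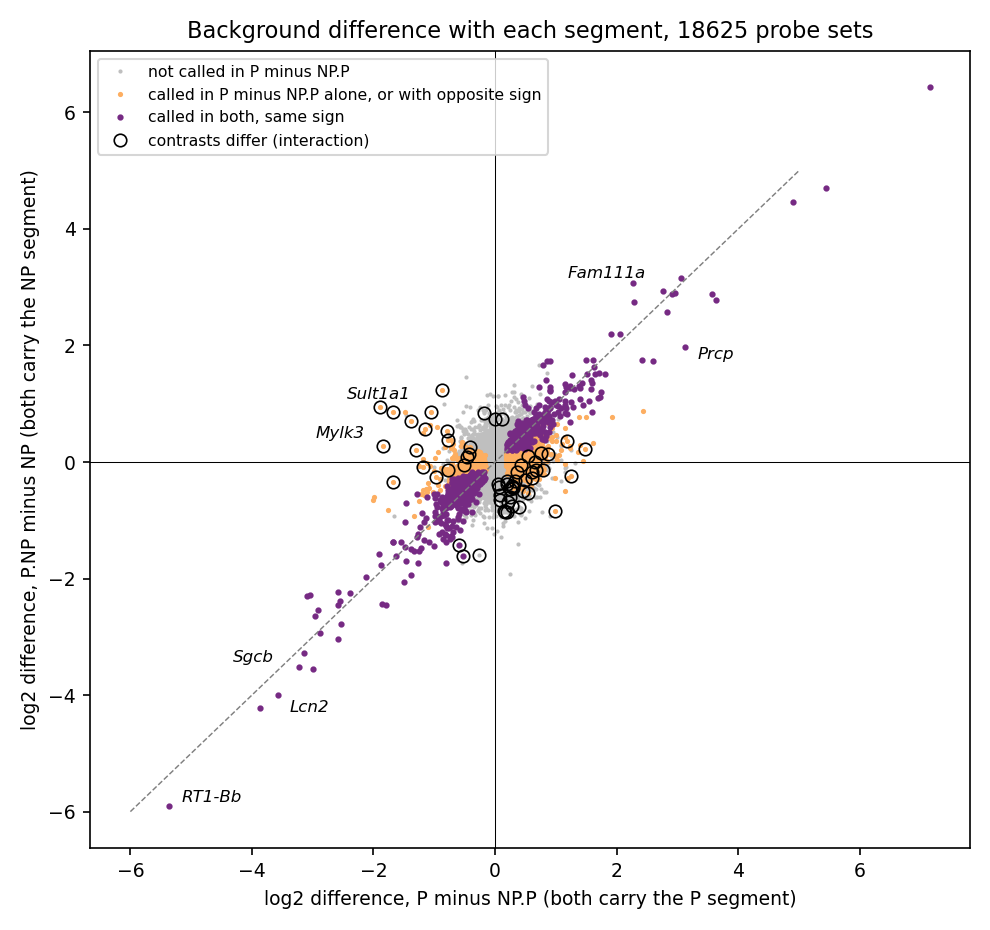
Log2 difference between the backgrounds with the P segment, P minus NP.P (horizontal), against that with the NP segment, P.NP minus NP (vertical), for 18625 probe sets. Purple points were called in both with the same sign (840), orange points were called in P minus NP.P without that, black rings mark the 59 probe sets whose contrasts differed, and the dashed line is equality; the pairs share no array.

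Histocompatibility genes of chromosome 20, which in the rat are called RT1 genes, included probe sets of the same gene that ran in opposite directions. RT1-Bb encodes the beta chain of a class II molecule, which presents peptides to helper T cells. At the probe set with the higher mean its signals were 12.8, 62, 56.6, 58.3 and 103 in P rats, against 2559, 1398, 2045, 1808 and 2396 in NP.P rats (log2 difference -5.36 ± 0.49, adjusted p = 5.55e-07). A second RT1-Bb probe set ran the other way, with 901, 663, 582, 607 and 747 in P rats, against 25.8, 18.5, 124, 55.9 and 202 in NP.P rats (log2 difference 3.57 ± 0.44, adjusted p = 2.86e-05). Each probe set was therefore high in 1 strain and near the bottom of the scale in the other, and no direction can be given for the gene. The P signals of the first probe set all lie below the filter's signal of 169.7. The NP.P signals of the second, from 18.5 to 202, mostly do too, so the sizes of both differences are uncertain. RT1-Db1, another class II beta chain, was split as well, with a log2 difference of 0.75 ± 0.08 at 1 probe set (adjusted p = 2.85e-06) and -1.86 ± 0.31 at the other (adjusted p = 0.000565). P signals at the other probe set ran from 86.2 to 253, on both sides of the filter's signal, so that size is uncertain too. In all, 21 genes had probe sets called in opposite directions, of 159 genes with more than 1 called probe set. They were not only RT1 genes, and Tmem248 had log2 differences of -0.62 and 1.6.

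Of 8 class II genes tested, 3 were called higher and 2 lower in P rats, with a median log2 difference of 0.08, and these counts include RT1-Db1 as higher and RT1-Bb as lower. The shares over all genes were 6.71% higher and 8.15% lower. Without these split genes, 2 of 6 were called higher and 1 lower. Cd74, the invariant chain that escorts class II molecules, was 7546 ± 656 in P rats and 5556 ± 991 in NP.P rats (log2 difference 0.46, adjusted p = 0.00876). With the NP segment its signals overlapped, from 6757 to 8374 in P.NP rats and from 7195 to 8624 in NP rats. Ciita, the master activator of class II genes, passed only narrowly (0.42, adjusted p = 0.08), and its call was lost without P replicate 1, 2 or 5 or NP.P replicate 2, 3 or 5. RT1-DMb, a chain of the peptide-loading molecule, was lower (-0.35, adjusted p = 0.0522), and its call was lost without P replicate 2 or 3 or NP.P replicate 1, 3 or 5. Among 15 class I and antigen processing genes, 3 were higher (20%) and 4 lower (26.7%), compared with 6.71% and 8.15% of all genes. RT1-CE16 had 135, 168, 103, 55.1 and 76.6 in P rats, against 1221, 827, 658, 836 and 941 in NP.P rats (log2 difference -3.14 ± 0.32, adjusted p = 2.05e-06), and its groups did not overlap. Its P signals all lay below the filter's signal of 169.7, so the size is uncertain. RT1-CE10 (-1.55), RT1-S3 (-0.57) and the peptide transporter subunit Tap2 (-0.60) were lower too. RT1-M3-1 (0.67), RT1-T24-4 (1.15) and Psmb8, an immunoproteasome subunit (0.66), were higher. RT1 genes are close copies of each other and vary between strains, so a probe set can read more than 1 of them. Chromosome 20 had the highest share of called probe sets, 82 of 386 (21.2%), and chromosome 7 the lowest of the autosomes and X, 103 of 902 (11.4%).

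Erythroid genes were lower together in P than in NP.P rats. All 18 genes tested had a negative difference, and 12 were called lower and 0 higher, compared with 8.15% of all genes called lower and 45.9% of all genes with a negative difference. The list's median was -0.32, against 0.02 over all genes. Rhag, the Rh-associated channel of the red cell membrane, had 5338, 5137, 5485, 4390.3 and 6638 in P rats, against 8332, 8905, 8722, 8798 and 8169 in NP.P rats (log2 difference -0.68 ± 0.11, adjusted p = 0.000346). Rhd, the Rh antigen, had 11169, 10692, 11102, 11004 and 13551 in P rats, against 15279, 15246, 16216, 15838 and 15862 in NP.P rats (-0.45 ± 0.07, adjusted p = 0.000473). Slc25a37, the mitochondrial iron importer of red cell precursors, had 15340.5, 15286, 14912, 15489.9 and 15840.4 in P rats, against 18382, 22135, 19958, 20728 and 20569.8 in NP.P rats (-0.40 ± 0.06, adjusted p = 0.000402). The groups of these 3 genes did not overlap. The other called genes were the transcription factors Klf1 (-0.61), Gata1 (-0.29) and Nfe2 (-0.27), the heme enzymes Fech (-0.31) and Urod (-0.39), the membrane skeleton and anion transport genes Epb42 (-0.50) and Slc4a1 (-0.37), the nuclear protein Hemgn (-0.29) and the erythropoietin receptor Epor (-0.23). Summed erythroid signals ran from 266403 to 295610.3 in P rats and from 320660.2 to 342849 in NP.P rats. They ran from 245841 to 267917 in P.NP rats and from 262838 to 305925 in NP rats. Every NP.P array thus lay above every array of the other strains. With the NP segment the list's median was -0.18, with 6 of 18 genes called lower, and 0 of the 18 genes differed between the contrasts. When single arrays were left out, between 11 and 13 of the 18 were called lower.

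Promoters of 3 of these genes are shown because GATA1, the factor that drives the red cell programme, recognises the letters GATAA. They are the 250 bases before each start in RefSeq (GRCr8), with GATAA or its other-strand form TTATC in capitals, on the minus strand of chr9:27594391-27594640 for Rhag, the minus strand of chr19:40158652-40158901 for Klf1 and the plus strand of chr5:152370950-152371199 for Rhd.
Rhag: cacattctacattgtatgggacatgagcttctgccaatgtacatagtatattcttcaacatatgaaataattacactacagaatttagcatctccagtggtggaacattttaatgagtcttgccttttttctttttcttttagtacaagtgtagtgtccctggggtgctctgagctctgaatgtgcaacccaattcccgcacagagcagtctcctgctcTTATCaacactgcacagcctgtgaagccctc
Klf1: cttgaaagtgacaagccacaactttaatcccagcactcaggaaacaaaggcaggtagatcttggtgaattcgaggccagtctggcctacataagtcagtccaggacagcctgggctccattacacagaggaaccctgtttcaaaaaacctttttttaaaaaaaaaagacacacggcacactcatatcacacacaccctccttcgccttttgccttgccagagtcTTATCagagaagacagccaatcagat
Rhd: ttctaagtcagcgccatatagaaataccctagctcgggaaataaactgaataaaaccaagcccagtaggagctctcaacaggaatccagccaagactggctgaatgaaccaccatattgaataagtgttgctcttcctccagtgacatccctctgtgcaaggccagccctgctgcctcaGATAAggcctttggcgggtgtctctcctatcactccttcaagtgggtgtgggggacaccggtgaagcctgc
The first base of the match lay 31, 26 and 71 bases before the start of Rhag, Klf1 and Rhd. Of the 12 lower erythroid genes, 8 had a promoter in the table, and 5 of these 8 (62.5%) held the letters on either strand, as did 7 of 11 (63.6%) of all erythroid genes tested with a promoter and 23.0% of all 24206 promoters. The 3 genes printed were chosen after their values and matches were seen. The bases come from the reference genome, not from these rats, and the part of GATA1 in the differences was not tested.

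Cell division genes showed the same direction. Of 23 tested, 11 were called lower and 0 higher in P rats, compared with 8.15% and 6.71% of all genes, and the median was -0.21. Ube2c, a ubiquitin-conjugating enzyme of mitotic exit, had 11319, 10575, 11493, 11702 and 12134 in P rats, against 16275, 17266, 14991, 14798 and 18462 in NP.P rats (log2 difference -0.51 ± 0.09, adjusted p = 0.00085). Ccnb1, a mitotic cyclin, was 4332 ± 518 in P rats and 5691 ± 261 in NP.P rats (-0.40, adjusted p = 0.00173), and Ccnb2 was 11050.4 ± 935 in P rats and 13599 ± 379 in NP.P rats (-0.30, adjusted p = 0.00659). The P and NP.P arrays did not overlap for these 3 genes. The replication genes Mcm3 (-0.47), Mcm5 (-0.25), Mcm2 (-0.21) and Pcna (-0.20), and Cdk1 (-0.26), Ccna2 (-0.31), Kif11 (-0.26) and Mki67 (-0.21), made up the rest of the 11. The count was 7 without P replicate 3 and also 7 with no filter. Summed signals of the list ran from 144600.2 to 157349 in P rats and from 169122 to 179563 in NP.P rats. The erythroid list moved with this one on the same arrays, and the part of cell composition in these differences was not tested.

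Of 13 adipocyte genes tested, 6 were called lower and 2 higher in P rats, with a median of -0.44, compared with 8.15% of all genes called lower and 6.71% called higher. The lower count was 4 without P replicate 1. Fabp4, the fatty acid binding protein of fat cells, had 6754, 5949, 7872, 7662 and 7069.7 in P rats, against 10354, 12759, 10733, 10768 and 9690.1 in NP.P rats (log2 difference -0.62 ± 0.11, adjusted p = 0.00116). Plin1, which coats lipid droplets, had 827, 599, 610, 927 and 717 in P rats, against 1294, 1580.2, 1204, 1238 and 1248 in NP.P rats (-0.85 ± 0.15, adjusted p = 0.0013). For both, every P array lay below every NP.P array. Pck1, the rate-limiting enzyme of glyceride and glucose synthesis from small precursors, was 923 ± 232 in P rats and 2302 ± 799 in NP.P rats (-1.30, adjusted p = 0.00153), and the hormone Adipoq (-0.44), Cfd (-0.51) and Cidea (-0.59) were lower as well. The lipid enzymes Fasn (0.38, adjusted p = 0.0373) and Lpl (0.41, adjusted p = 0.0724) were higher. Leaving out any array but P replicate 1 or NP.P replicate 4 left 1 of these 2 called. Summed adipocyte signals ran from 33473 to 38008 in P rats and from 39600.5 to 47759 in NP.P rats. With the NP segment the list's median was 0.06, with 1 gene higher and 1 lower, and 1 of the 13 genes, Pck1, differed between the contrasts (adjusted p = 0.0865).

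Genes of fuel use in fasting had 4 of 15 members lower and 0 higher, compared with 8.15% and 6.71% of all genes, with a median of 0.08. By the methods' t-test 1 of the 15 was called, and the calls of Pdk4 (adjusted p = 0.167), Angptl4 (0.108) and Ucp3 (0.195) were lost. Pdk4, which blocks the entry of pyruvate into the citric acid cycle, had 2011, 2040, 8452, 7004 and 6097 in P rats, against 9756, 8619.7, 16101, 15821 and 12009.8 in NP.P rats (log2 difference -1.49 ± 0.38, adjusted p = 0.0179). P replicates 1 and 2 were the lowest of the 10 arrays by a wide margin, though all P arrays lay below all NP.P arrays. Angptl4, a circulating inhibitor of lipoprotein lipase, had 612, 406, 1259, 782 and 914 in P rats, against 1341, 1922, 1650, 1572 and 1777 in NP.P rats (-1.15 ± 0.27, adjusted p = 0.0111). Ucp3, a mitochondrial carrier, overlapped between the strains (-0.95, adjusted p = 0.0298), and Txnip, an inhibitor of glucose uptake, was lower by a log2 difference of -0.39. The difference ran the other way with the NP segment for Pdk4 (0.86), Angptl4 (0.57) and Ucp3 (0.60), none of which was called there, and the contrasts differed for Angptl4 (adjusted p = 0.0865) but not for Pdk4 (0.107) or Ucp3 (0.129).

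B lymphoid genes were higher in P than in NP.P rats. Of 8 tested, 5 were called higher and 0 lower, with a median of 0.42, compared with 6.71% of all genes called higher. Ms4a1, which encodes CD20 of mature B cells, had 3115, 2624, 2477, 2753 and 2829 in P rats, against 2301, 1532, 1834, 1433 and 1777 in NP.P rats (log2 difference 0.65 ± 0.12, adjusted p = 0.00161). Blnk, an adaptor of the B cell receptor, had 10845, 9066, 9334, 10069 and 9457 in P rats, against 8189, 6861, 7379, 6648 and 7600.2 in NP.P rats (0.41 ± 0.09, adjusted p = 0.00584). Both genes were higher on all P arrays than on any NP.P array. The coactivator Pou2af1 (0.48), the receptor subunit Cd79b (0.44) and Fcrla (0.32) were the others. Of the list's 16 genes, 8 were tested. Summed B lymphoid signals ran from 33502 to 40920.3 in P rats and from 24381 to 32571 in NP.P rats. They ran from 30027 to 37336 in P.NP rats and from 29285 to 38049 in NP rats, overlapping both P and NP.P rats. Between 4 and 7 genes were called when single arrays were left out. With the NP segment the median was -0.05 and 0 of the 8 genes were called, and 0 of the 8 passed the test of the difference between the contrasts.

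Mast cell and basophil genes had 4 of 9 members higher and 0 lower, compared with 6.71% and 8.15% of all genes, with a median of 0.16. Ms4a2, the beta chain of the high-affinity IgE receptor, had 1284, 952, 802, 885 and 1042 in P rats, against 572, 442, 663, 427 and 484 in NP.P rats (log2 difference 0.94 ± 0.14, adjusted p = 0.000204), without overlap. Mcpt8, a basophil protease, was 3413 ± 748 in P rats and 2175 ± 446 in NP.P rats (0.65, adjusted p = 0.00564). Cpa3 and Hdc were called less firmly (adjusted p = 0.0449 and 0.089), and 2 genes of the list were called without P replicate 1, P replicate 2 or NP.P replicate 5. Summed signals of the list ran from 10638 to 16204 in P rats and from 8538 to 13189 in NP.P rats. With the NP segment the median was -0.09, 0 of the 9 genes were called, and 0 of the 9 passed the test of the difference between the contrasts. The list score ran from -0.3 to 0.21 in P rats and from -0.6 to -0.02 in NP.P rats. It ran from 0.07 to 0.24 in P.NP rats and from 0.16 to 0.32 in NP rats. Of 8 T and NK cell genes only Cd3g was called (list median 0.13). Its signals were 3440, 2420.2, 2784, 2825 and 3263 in P rats, against 1263, 1082, 975, 750 and 994 in NP.P rats. The T cell genes Cd5 (-0.12), Lck (0.10) and Zap70 (0.15) did not pass, and Cd3d and Cd3e were not tested.

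Platelet genes had 3 of 9 members lower and 0 higher, compared with 8.15% and 6.71% of all genes, with a median of -0.31. Pf4, the chemokine platelet factor of alpha granules, was 24013 ± 1734 in P rats and 30593 ± 3059.6 in NP.P rats (log2 difference -0.35, adjusted p = 0.0115), Ppbp, its neighbour in the granule, was lower by -0.59, and the receptor Treml1 by -0.38. Without P replicate 3 and without NP.P replicate 3, 1 and 2 genes of the list were called higher. Of 11 macrophage genes, the scavenger receptor Cd163 (-0.50, adjusted p = 0.023) and the mannose receptor Mrc1 (-0.26, adjusted p = 0.0855) were lower and 0 higher, with a median of -0.12. The share lower was 18.2%, against 8.15% of all genes. Only Cd163 was called without any one of P replicates 1 and 2 and NP.P replicates 1, 2, 3 and 5. Of 14 endothelial genes, Vwf, the clotting factor stored in vessel walls and platelets, was lower (-0.56, adjusted p = 0.00235) and the sialomucin Emcn higher (0.20, adjusted p = 0.0497), with a median of 0.02. That was 7.14% in each direction, near the shares over all genes (6.71% higher and 8.15% lower). The Emcn call was lost without P replicate 3 or 4 or NP.P replicate 2, and without NP.P replicate 3 a second gene was called lower.

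**Figure D3:**
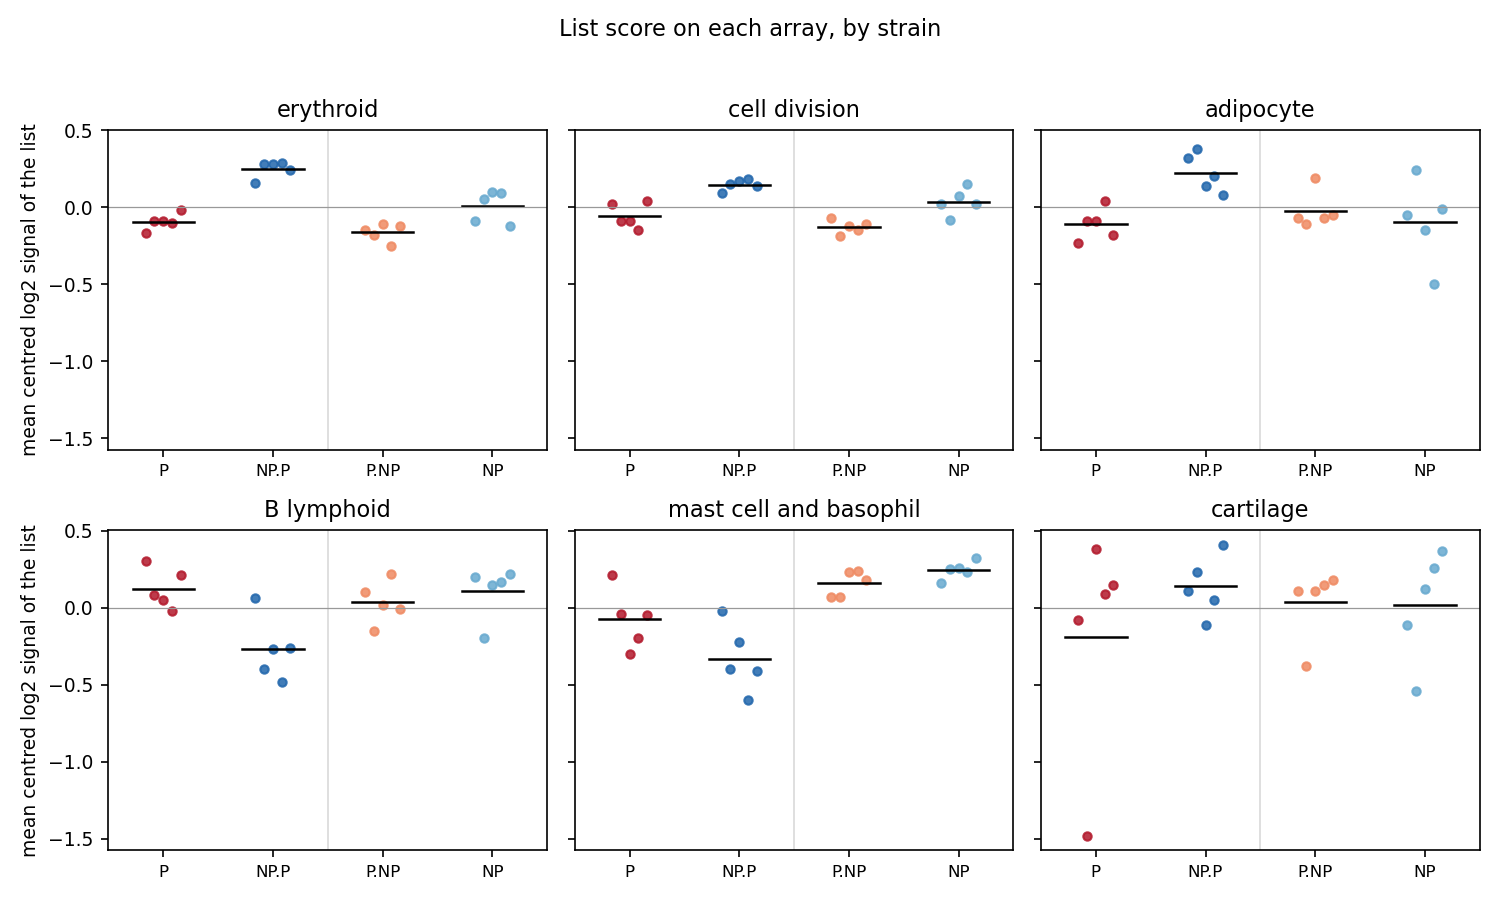
Score of 6 gene lists on each array, averaged over its genes from log2 signals centred on their means over all 20 arrays (vertical), for the P, NP.P, P.NP and NP strains (horizontal; points are arrays, bars are means). The erythroid, cell division and adipocyte scores of the P arrays lie below those of the NP.P arrays, from -0.17 to -0.02 against 0.16 to 0.29 for the erythroid list, and P replicate 2 stands apart in the cartilage list at -1.48.

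Few genes of bone itself were called. Of 18 osteoblast and matrix genes, only Postn was called, with a list median of 0.12. The share called higher, 5.56%, was near the 6.71% of all genes. Postn encodes periostin, a matrix protein of the periosteum, and had 22961, 24359, 22012, 23732 and 21592 in P rats, against 18537, 17577, 17051, 16086 and 15410.2 in NP.P rats (log2 difference 0.44 ± 0.08, adjusted p = 0.00201), without overlap. The main collagen genes Col1a1 (-0.09) and Col1a2 (-0.06), osteocalcin Bglap (0.10) and the mineral genes Alpl (0.29), Dmp1 (0.16) and Phex (0.28) did not pass. Without P replicate 2 or NP.P replicate 5, 2 genes of this list were called, and with quantile normalization 4 were, all higher in P rats, with a median of 0.18. None of 10 osteoclast genes was called, with a median of -0.02, and 1 was called higher without P replicate 5. None of 19 cartilage genes was called with limma, although the median was -0.43. The cartilage score of P replicate 2 was -1.48 while the other P arrays lay between -0.08 and 0.38 and the NP.P arrays between -0.11 and 0.41, and without P replicate 2 the median was 0.01. None of 26 skeletal muscle genes was called, with a median of 0.00, and 1 was called higher without P replicate 5. At an unadjusted limma p under 0.05 there were 1 osteoclast, 2 cartilage and 1 muscle gene, and 0 sex-linked genes, and the methods' t-test called 0 in each of these lists after adjustment.

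In signalling pathways of bone, 3 of 23 genes of BMP and TGF-beta signalling were higher and 0 lower, with a median of 0.09. The share higher was 13%, against 6.71% of all genes. Inhba, the activin subunit, had 1513, 1539, 1272, 1532 and 1129 in P rats, against 1067, 1039, 918, 793 and 910 in NP.P rats (log2 difference 0.56 ± 0.13, adjusted p = 0.0084). The receptor Tgfbr1 (0.41, adjusted p = 0.022) and the ligand Tgfb2 (0.24, adjusted p = 0.0901) were the others, and the groups of all 3 genes did not overlap. The Tgfb2 call held only without P replicate 4 or NP.P replicate 1 among the fits with 1 array left out. Without P replicate 3, 1 gene of the list was called lower. Of 14 Wnt modulators, the secreted antagonist Sfrp4 was higher (0.38, adjusted p = 0.0216) and Sfrp5 lower (-0.67, adjusted p = 0.0958), with a median of 0.02, so that 1 of 14 was called in each direction, near the shares over all genes (6.71% higher and 8.15% lower). The Sfrp5 call was lost in 7 of the 10 fits with 1 array left out and held only without P replicate 3 or 5 or NP.P replicate 3.

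Of 16 genes of the growth hormone and IGF axis, 3 were lower and 1 higher, with a median of -0.05. The share higher, 6.25%, was near that over all genes (6.71%), and the share lower was 18.8%, against 8.15%. The binding protein Igfbp4 had 1196, 967, 1179, 1169 and 1313 in P rats, against 1816, 1816, 1471, 1720.4 and 1786 in NP.P rats (log2 difference -0.57 ± 0.10, adjusted p = 0.00125), without overlap. Igfbp3, the main carrier of circulating IGF, was lower by -0.40 (adjusted p = 0.0136), and the growth factor Igf2 by -0.55 (adjusted p = 0.0404). Igfbp5, which is abundant in bone, was higher (0.29, adjusted p = 0.0497), but its call was lost without P replicate 1 or 2 or NP.P replicate 4. Ghrhr, the receptor of growth hormone releasing hormone, lies in the QTL region and was 519 ± 125 in P rats and 485 ± 98.8 in NP.P rats (adjusted p = 0.822).

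Glutathione genes moved in both directions, with 1 of 19 higher, 3 lower and a median of -0.11. That was 5.26% higher and 15.8% lower, compared with 6.71% and 8.15% of all genes. Gclc, the catalytic subunit of the first enzyme of glutathione synthesis, had 4124, 4134, 4235, 4116 and 4669 in P rats, against 3045, 2652, 3007, 2708 and 2506 in NP.P rats (log2 difference 0.61 ± 0.06, adjusted p = 2.85e-06). Gclm, the modifier subunit of the same enzyme, had 5937, 5532, 5708, 6029.9 and 5786 in P rats, against 7812, 9549, 7479, 9436 and 8878 in NP.P rats (-0.57 ± 0.07, adjusted p = 1.96e-05). The subunits of this enzyme were thus separated in opposite directions on all 10 arrays, and the second Gclc probe set was not called. The transferase Gsta4 (-0.47) and the lipid peroxidase Gpx4 (-0.19, adjusted p = 0.0557) were lower, and the Gpx4 call was lost without P replicate 1, 2 or 5 or NP.P replicate 3, 4 or 5. Among 14 genes of alcohol and aldehyde metabolism, only Aldh2, the mitochondrial enzyme that clears acetaldehyde, was called, 7.14% of the list against 8.15% of all genes called lower. Its signals were 3851, 3749, 3627, 3791 and 3919 in P rats, against 4507, 4559, 4353, 4279.8 and 4283 in NP.P rats (-0.22 ± 0.05, adjusted p = 0.0145, list median 0.02), a small difference without overlap.

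Immediate early and stress genes had 3 of 16 members higher and 2 lower, compared with 6.71% and 8.15% of all genes, with a median of 0.11. Dusp1, a phosphatase that shuts off stress kinases, had 6951, 7863, 7291, 6259 and 6351 in P rats, against 3723, 3992, 3716, 3686 and 3310.2 in NP.P rats (log2 difference 0.91 ± 0.10, adjusted p = 5.39e-06). Jun was also higher without overlap (0.80, adjusted p = 0.000213), while Ier3 (-0.73) and Myc (-0.52) were lower. Fos was called (0.68, adjusted p = 0.0475) but lost without P replicate 1 or 3 or NP.P replicate 4. Of 16 clock genes, the repressors Bhlhe40 (0.70, adjusted p = 0.0307) and Bhlhe41 (0.35, adjusted p = 0.0847) were higher and 0 lower, with a median of 0.13, compared with 6.71% of all genes called higher. The Bhlhe41 call was lost in 7 of the 10 fits with 1 array left out and held only without P replicate 4 or 5 or NP.P replicate 2, and the methods' t-test called 0 of the 16. Time of day was not given in the sources used here. Of 16 interferon genes, the antiviral enzyme Rsad2 (-0.45, adjusted p = 0.00253) and Parp9 (-0.72, adjusted p = 1.16e-06) were lower and the GTPase Gbp2 higher (0.38, adjusted p = 0.0353), with a median of 0.03. That was 6.25% higher and 12.5% lower, compared with 6.71% and 8.15% of all genes. The sex-linked list had 0 of 2 genes called, with a median of -0.03.

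In the QTL region, where both strains carry the P segment, called probe sets were about as frequent as elsewhere and the median difference was of about the same size. Its limits were set at Arf5 and Ppp4r2 on chromosome 4, the outermost genes of the study's list for the region, not at the markers that flank the segment. The segment itself may end elsewhere. The GRCr8 gene order places 397 genes with 588 probe sets between these limits. The filter left 384 probe sets, for 284 genes. Of these, 56 probe sets were called (14.6%), 22 higher and 34 lower in P rats, compared with 2575 of 18241 (14.1%) outside the region. The median size of the difference was 0.14 inside and 0.15 outside. A difference of 1 or more was called at 1 probe set of the region (0.26%), and at 161 of those outside it (0.883%). Over runs of 25 neighbouring genes within the region, the share called ranged from 0% to 32%, with a median of 16%, as it was over all chromosomes. The highest run of the genome lay on chromosome 13 from Zranb3 to Dstyk, where 13 of 25 genes (52%) were called, none by 1 or more.

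The called genes of the region were led by Gng12, a gamma subunit of G proteins, with 1610, 1518, 1679, 1817 and 1951 in P rats, against 3333, 4656, 2912, 3858 and 5043 in NP.P rats (log2 difference -1.18 ± 0.15, adjusted p = 2.58e-05). Its second probe set was not called. Genes of red cells followed in the same direction, each without overlap. Aqp1, the water channel of the red cell membrane, had 12220.1, 11623, 12118, 11968 and 14864 in P rats, against 16332, 16817, 17453, 17734 and 17726 in NP.P rats (-0.46 ± 0.07, adjusted p = 0.000446). Kel, which carries the Kell blood group, was 9023 ± 391 in P rats and 12219 ± 780 in NP.P rats (-0.44, adjusted p = 0.000455), and Bpgm, which makes the regulator of hemoglobin's oxygen affinity, was 18703 ± 1543 in P rats and 23965 ± 1069.6 in NP.P rats (-0.36, adjusted p = 0.00523). These genes moved with the erythroid list, whose summed signals are given above. Mxd1, a partner of Max (-0.42), the ubiquitin ligase Mkrn1 (-0.50), the growth arrest gene Gadd45a (-0.45) and the chaperonin subunit Cct7 (-0.30) were lower too.

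Hoxa5 and Foxp1 were the genes higher in P than in NP.P rats among the 10 of the region with the smallest p. Hoxa5, a patterning transcription factor, had 536, 617, 622, 648 and 642 in P rats, against 421, 464, 459, 472 and 375 in NP.P rats (log2 difference 0.49 ± 0.10, adjusted p = 0.00373), and Foxp1, a forkhead repressor, was 3955 ± 296 in P rats and 3025 ± 84.8 in NP.P rats (0.38, adjusted p = 0.00508). Neuropeptide Y and osteoactivin, which lie in the segment, did not differ between P and NP.P rats. Npy had 6402, 7073, 5689, 6005 and 6436 in P rats, against 6091, 6942, 7025, 5366 and 6699.8 in NP.P rats (-0.02 ± 0.09, adjusted p = 0.927), and Gpnmb was 13149 ± 2649 in P rats and 12731 ± 978 in NP.P rats (0.02 ± 0.14, adjusted p = 0.948). Npy did differ with the NP segment, at 6802 ± 775 in P.NP rats and 9279 ± 666 in NP rats (-0.45, adjusted p = 0.00473), and the difference between the contrasts did not pass (adjusted p = 0.243).

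**Figure D4:**
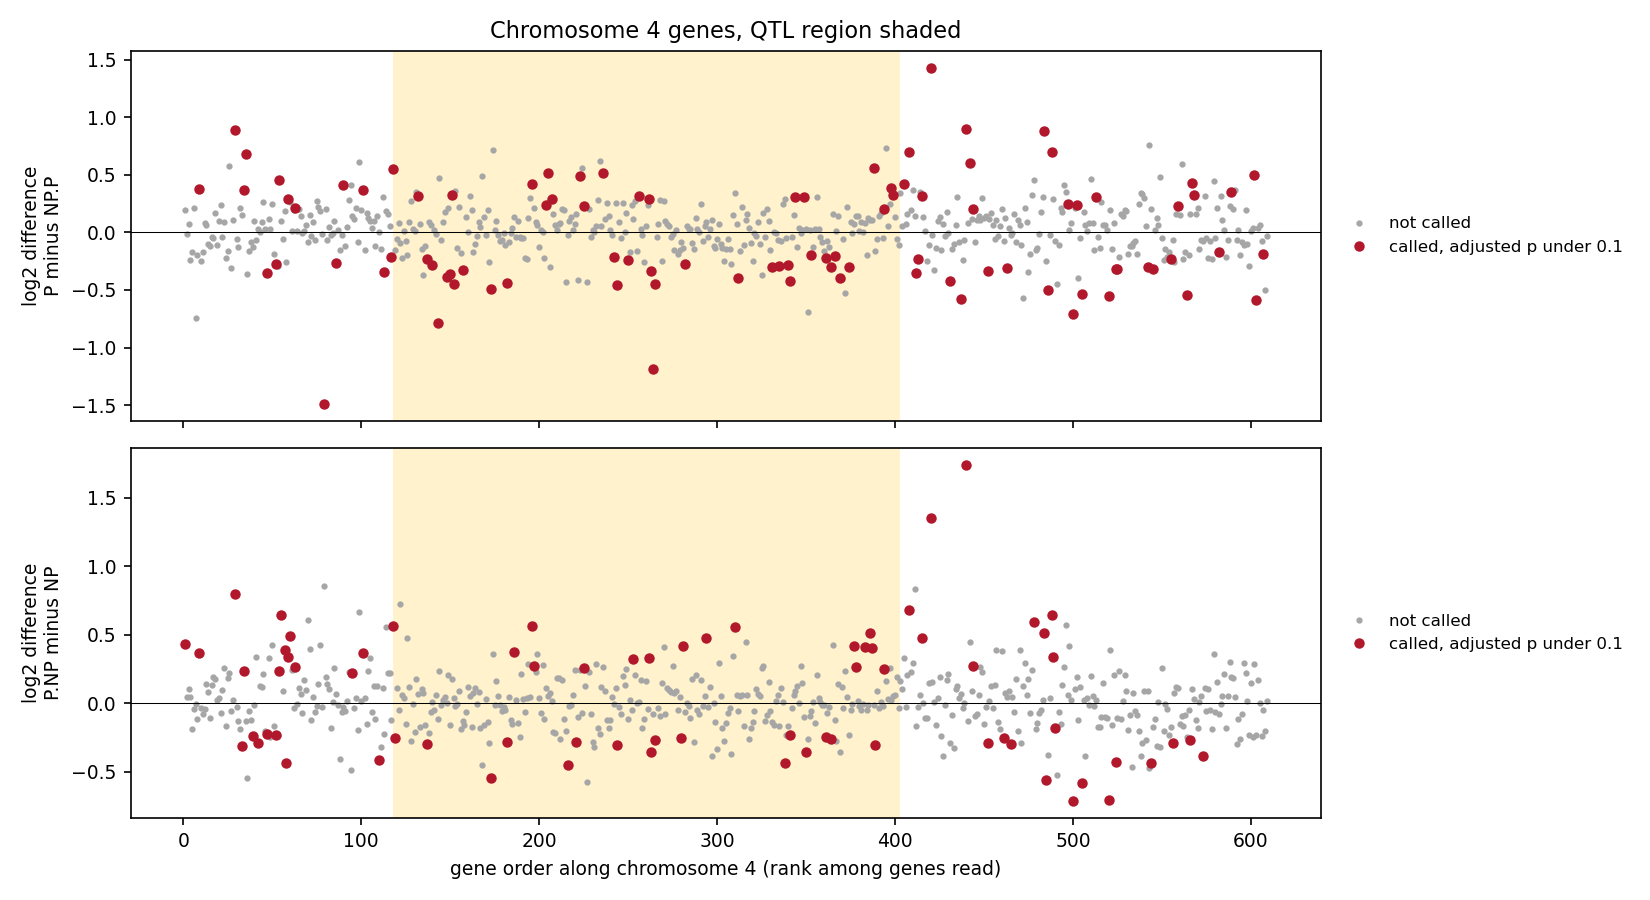
Log2 difference of the 609 chromosome 4 genes read, in gene order (horizontal), for P minus NP.P (top) and P.NP minus NP (bottom), with the QTL region shaded and called genes in red. Within the shaded region, where both strains of each pair carry the same segment, Gng12 at -1.18 in the top panel is the only called difference of 1 or more.

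The background difference differed between the pairs at 59 probe sets (0.317% of those tested, limma contrast of the contrasts), and 1808 had an unadjusted p under 0.05. Each combination of background and segment is 1 line, so the segment cannot be told apart from other traits of a line. Of the 59, 25 were called in P minus NP.P alone, 19 in P.NP minus NP alone, 13 in both with opposite signs and 2 in both with the same sign. The count was 34, 37, 36 and 29 without P replicate 1, 2, 4 and 5, and 93, 21 and 22 without NP.P replicate 1, 2 and 4. The genes named here were chosen after their values were seen. Stfa2l2, a stefin-type protease inhibitor, had 4707, 3485, 3494, 3552 and 4205 in P rats, against 1846, 1749, 1401, 1521 and 1593 in NP.P rats (log2 difference 1.26 ± 0.12, adjusted p = 1.3e-06). With the NP segment it was 2121 ± 328 in P.NP rats and 2507 ± 337 in NP rats, and the contrasts differed by 1.5 ± 0.17 (adjusted p = 0.0011). Mylk3, the myosin light chain kinase of the heart, had 211, 245, 387, 267 and 313 in P rats, against 770, 1080.4, 827, 1167 and 1267 in NP.P rats (-1.85 ± 0.19, adjusted p = 2.06e-06), and was 395 ± 41.8 in P.NP rats and 335 ± 91.9 in NP rats. NP.P rats were therefore the only strain with a high Mylk3 signal, and the contrasts differed by -2.12 ± 0.27 (adjusted p = 0.00183).

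Clic2 and Gng12 showed the same pattern as Mylk3, high in NP.P rats alone. Clic2 had 2852, 2541, 3448, 2953 and 3320.2 in P rats, against 6724, 10846, 8269, 11463 and 11657 in NP.P rats, and was 3662 ± 501 in P.NP rats and 4647 ± 855 in NP rats (contrasts differed with adjusted p = 0.0137). Gng12 was 2219.6 ± 367 in P.NP rats and 2338 ± 359 in NP rats (adjusted p = 0.0367). Sult1a1, a sulfotransferase of phenols and catecholamines, was reversed, at 1227 ± 415 in P rats and 2450.4 ± 392 in NP.P rats, and at 3152 ± 509 in P.NP rats and 1765 ± 478 in NP rats (adjusted p = 0.0123 for the difference between the contrasts). Mt2A, a metal-binding metallothionein, had 2759.6, 3225, 3129.7, 3042 and 3576 in P rats, against 5519, 5271, 5823, 5208 and 4991 in NP.P rats (log2 difference -0.77, adjusted p = 0.000393), with 0.37 in P.NP minus NP. Chac1, which degrades glutathione, differed in the same way (-0.78 and 0.53). Reln, an extracellular matrix signalling protein of chromosome 4, was higher in P than in NP.P rats (0.68) and not with the NP segment (-0.13).

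The contrasts also differed for Prg2, Epx and Alox15 (adjusted p = 0.0282, 0.0748 and 0.0748), again chosen after their values were seen. Prg2, the major basic protein of eosinophil granules, was 13469.6 ± 2421 in P rats and 16256 ± 3243 in NP.P rats (log2 difference -0.27, adjusted p = 0.363), and 9304 ± 1873 in P.NP rats and 27827 ± 3912 in NP rats (-1.59, adjusted p = 3.92e-06). Epx, the eosinophil peroxidase, was lower in both pairs, by -0.52 with the P segment (adjusted p = 0.0536) and by -1.61 with the NP segment. The P minus NP.P call of Epx was lost without P replicate 3 or 4 or NP.P replicate 1, 2 or 5. Alox15, a lipoxygenase that is abundant in eosinophils in other species, had 19074, 19597, 24546, 24052 and 23621 in P rats, against 36263, 45215, 41403, 43641 and 51801 in NP.P rats (-0.98 ± 0.11, adjusted p = 6.7e-06), and -0.26 with the NP segment.

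**Figure D5:**
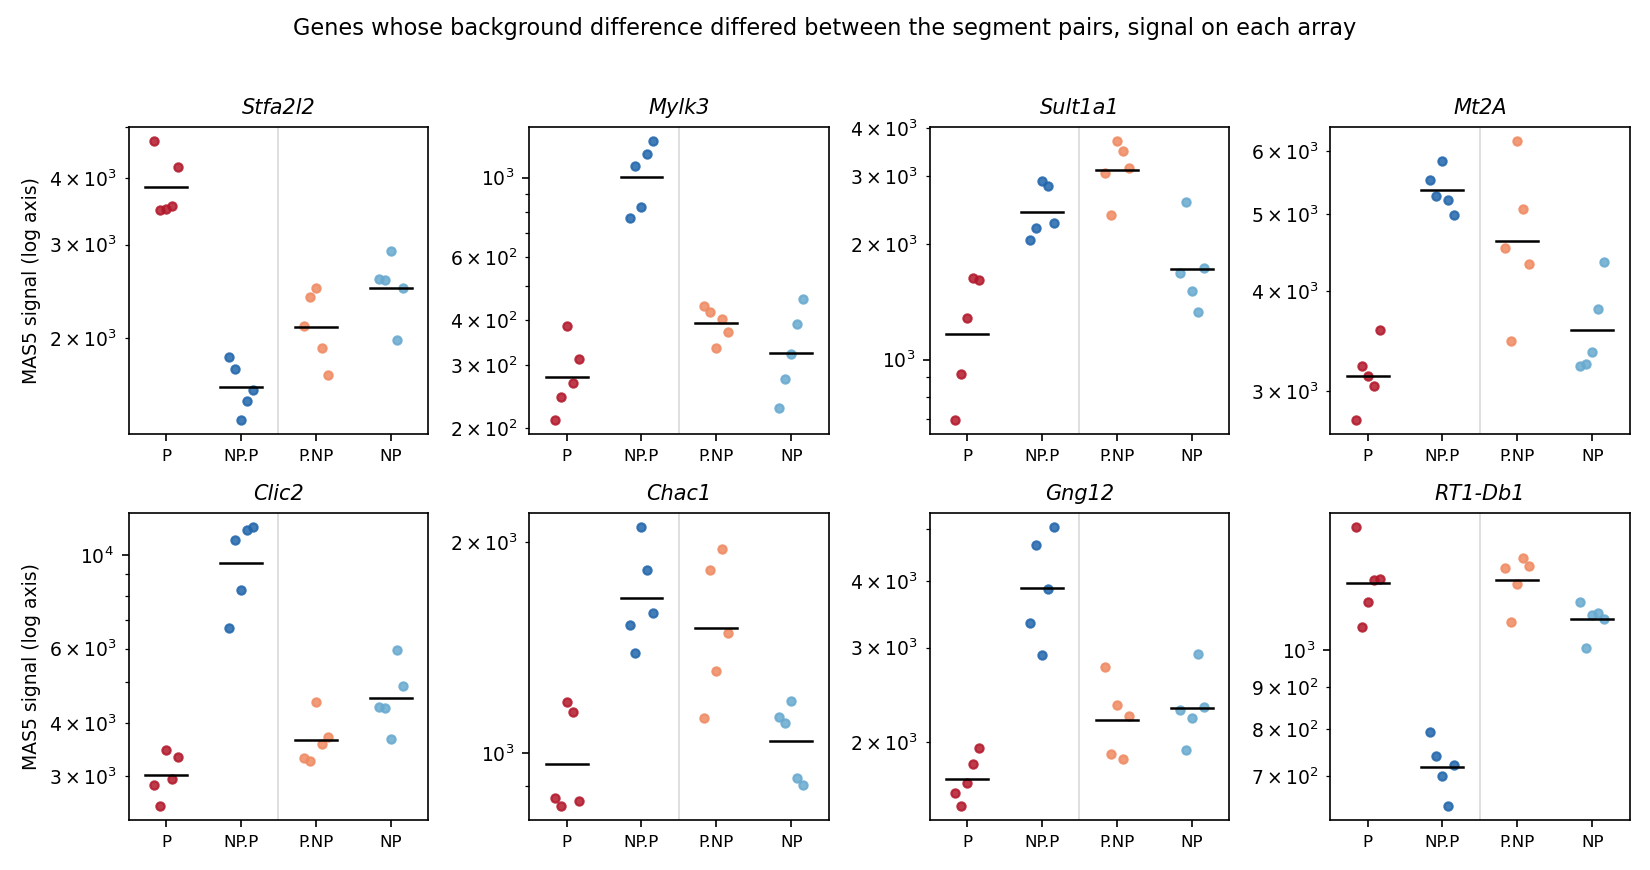
MAS5 signal on a log axis (vertical) on each of the 5 arrays of the P, NP.P, P.NP and NP strains (horizontal) for 8 genes whose background difference differed between the pair with the P segment and the pair with the NP segment. Points are arrays and bars are means of the log signals; Mylk3, Clic2 and Gng12 are high in NP.P rats alone, and Stfa2l2 is highest in P and lowest in NP.P rats.

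Genes outside the segment that had been chosen for a difference between NP.P and NP rats on these same arrays, and so are not independent evidence, were also read. Another gene of that choice, Ddx58 (Rigi), was not among the genes read here. Between P and NP.P rats the mitophagy receptor Bnip3l (log2 difference -0.27, adjusted p = 0.021), the deubiquitinase Otub2 (-0.28, adjusted p = 0.0159) and the chaperone Dnajb2 (-0.25, adjusted p = 0.00877) were lower, RT1-Db1 is given above, and Ptgfrn, a regulator of the prostaglandin F2 receptor (0.11, adjusted p = 0.383), and the clotting factor F13a1 (0.08, adjusted p = 0.699) did not pass. The contrasts differed for Ptgfrn, with 0.73 in P.NP minus NP (limma adjusted p = 0.0167 for the difference between the contrasts).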

How the data were processed

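Femur RNA was hybridised to 20 single-colour arrays, 5 per strain. The deposited values are MAS5 signal intensities, which the authors made with GCOS 1.2 and scaled to an equal 2% trimmed mean per array; the scaling hides any difference in total RNA. The values were floored at 1 and log2 transformed. Probe sets with a mean under the 40th percentile (signal 169.7) were left out. Strain means over all 20 arrays were fitted with limma 3.58.1 in R 4.3.3, and p values were adjusted by Benjamini-Hochberg over the 18625 probe sets tested, with calls at 10%. RNA ratios were compared with scipy 1.17.1. On simulated data, 49 of 100 changes of 0.5 and 84 of 100 changes of 1 (log2) were recovered for P minus NP.P, with 12 false of 145 calls. The simulated strains had normal noise around a common mean per probe set, and only those changes were added among the 18625 probe sets. A smaller share was changed than was called in the data, so these rates may not hold there. The number of arrays limits the precision, and the limma p values weigh a difference of strain means against the spread between arrays within strains. Where a gene had several probe sets with 1 symbol, the brightest on average stood for it. Named were the 12 genes with the smallest adjusted p and the 8 with the largest difference per direction, up to 10 called genes of the QTL region, up to 3 called per list and direction, preset single genes and the trans-regulated genes; other list members are examples, chosen after their values were seen. The members and lists were chosen with earlier results of these data known. Alternatives were other filters, normalizations, fits, thresholds and single arrays left out.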

Additional observations from a re-analysis of the deposited data

Results flagged for a closer look

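In 24 of 338 groups of 5 arrays, over named genes and list scores, the highest or lowest array stood apart, its gap to the nearest array taking more of the group's range than the critical share of 0.71; chance does this in about 1 in 20 groups. Among P arrays the gap's share of the range was 0.796 for Aqp1 (replicate 5), 0.745 for Cwc25 (replicate 1), 0.752 for Dnajb2 (replicate 4), 0.807 for Fam111a (replicate 2), 0.775 for Gclc (replicate 5), 0.73 for Gpnmb (replicate 2), 0.742 for Hoxa5 (replicate 1), 0.806 for RT1-A (replicate 2), 0.711 for RT1-Bb (replicate 1) and 0.816 for Rhd (replicate 5). Among NP.P arrays it was 0.766 for Acox2 (replicate 2), 0.817 for Bhlhe41 (replicate 2), 0.863 for Ghrhr (replicate 5), 0.744 for Igfbp4 (replicate 3), 0.92 for Pck1 (replicate 2), 0.84 for Pf4 (replicate 4), 0.736 for Plin1 (replicate 2), 0.729 for Psmb8 (replicate 5), 0.75 for RT1-A (replicate 5) and 0.755 for Sfrp4 (replicate 1). Of list scores it was 0.711 for macrophage (P replicate 2), 0.886 for osteoblast and bone matrix (P replicate 2), 0.753 for cartilage (P replicate 2) and 0.723 for GH and IGF axis (P replicate 1). P replicate 2 stood apart in the osteoblast, cartilage and macrophage scores.

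The background difference differed between the pairs for 34 genes (limma, adjusted p under 0.1), chosen after their values were seen. P minus NP.P exceeded P.NP minus NP, on the log2 scale, by 1.5 for Stfa2l2, 1.03 for Cybb, 1.07 for Phactr1, 1.33 for Prg2, 0.49 for Slc16a6, 0.74 for Ripor2, 0.59 for RT1-Db1, 0.65 for Fcnb, 0.64 for F5, 0.84 for Ppbp, 0.74 for Otud1, 0.45 for Fchsd2, 0.72 for Tia1, 1.09 for Epx, 0.49 for Casp1, 0.43 for Mknk1, 0.58 for Siglec5, 0.73 for Nrgn, 0.95 for Apol3-ps1, 0.52 for Igf1 and 0.81 for Reln. It was below it, with a difference of the contrasts of -2.12 for Mylk3, -1.15 for Mt2A, -1.92 for Sult1a1, -1.34 for Clic2, -1.32 for Chac1, -0.62 for Ptgfrn, -1.11 for Gng12, -0.56 for Mecr, -0.55 for Arhgef37, -0.63 for Tinagl1, -0.72 for Alox15, -1.5 for Pck1 and -1.72 for Angptl4. RT1-Db1 has a second probe set that ran the other way.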

How the results depend on the processing

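The 2631 calls between P and NP.P rats numbered between 1768 and 3028 under the alternatives, and 0 of the calls shared with an alternative had the opposite sign. Probe sets higher in P rats numbered 853 with no filter, 781 by the methods' t-test and 790 at an FDR of 5%. In the QTL region 36 were called with no filter. Taking all of chromosome 4 as the region, with the filter kept, gave 121. Calls shared with P.NP minus NP numbered 544 with each pair fitted alone, 400 by the methods' t-test and 559 at an FDR of 5%. The 59 probe sets whose contrasts differed were the least stable count. It was 17 with no filter, 127 with a filter at the 60th percentile and 115 with a mean-variance trend. With array weights it was 102, and at an FDR of 5% it was 25. The pairs fitted alone and the t-test give no such test. The cause of these shifts was not tested. Leaving out 1 array gave from 2037 to 2596 calls, from 946 to 1308 higher and from 1064 to 1364 lower. From 38 to 60 were called in the QTL region and from 717 to 823 were shared. At 21 to 93 probe sets the contrasts differed. The GAPDH ratio difference ran from 0.0382 to 0.0481 and that of beta-actin from 0.0468 to 0.157. Same-numbered P and NP.P arrays deviated together with r from -0.046 to 0.169, so the numbers did not pair them. A replicate block gave 2804 calls, 2494 of them shared, and 54 probe sets whose contrasts differed. Of 125 named genes called, 99 were called under every alternative run; the other 26 were lost under at least 1, with 22 lost by the t-test, 14 with no filter and 11 at an FDR of 5%. Low signals near background limit the size of large differences.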
